A study of Sus scrofa with 42 samples.

Results

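Ubiquitin conjugating enzymes (E2), cullins and F-box proteins were followed through the first cleavages of pig embryos. Their genes were taken by name from the deposited expression table, as every gene whose name starts with UBE2, or with CUL, FBXO, FBXW or FBXL and a number. This gave 83 of the 15351 genes of the table, of which 23 are UBE2, 8 are CUL, 33 are FBXO, 5 are FBXW and 14 are FBXL genes. Ubiquitin is passed from an activating enzyme (E1) to an E2, and from there, with the help of a ligase (E3), to a protein that is marked for breakdown or for another fate. Cullins are the scaffolds of a large class of these ligases, in which an F-box protein on CUL1 chooses the substrate, and the modifier NEDD8 switches them on. Eggs and early embryos depend on this system to leave meiosis and to clear maternal proteins before and while the embryonic genome starts to be transcribed.

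Single pig zygotes and blastomeres were sequenced from embryos made by in vitro fertilization (IVF), which carry a maternal and a paternal genome, and by parthenogenetic activation (PA), which carry maternal genomes alone. Both kinds came from slaughterhouse gilt oocytes matured in vitro, and PA oocytes were activated with electric pulses followed by 6-dimethylaminopurine and cytochalasin B. Embryos were taken after 19 h with a single cell, after 27 h with 2 cells, after 48 h with 4 cells and after 72 h with 8 cells. Each method had 21 cells, namely 3 single 1-cell embryos, 6 blastomeres of 3 2-cell embryos, 9 blastomeres of 3 4-cell embryos and 3 blastomeres of 1 8-cell embryo. The embryo was taken as the replicate, with the mean FPKM (fragments scaled to gene length and sequencing depth) of its blastomeres as its value, so both 8-cell groups rest on 1 embryo. A test there borrows its spread from the other groups. No label says that the embryos of a group came from separate animals or days, so p-values measure the spread between these embryos.

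Between 4587173 and 15599876 reads per cell lay on nuclear genes (median 10542878), and the 24 mitochondrial genes held 6.07 to 62.96% of a cell's FPKM. Of 13 oocyte and early embryo markers, 11 were in the table and all 11 reached an FPKM of 1, with sums of 744 to 1893 from the 1- to the 4-cell stage and of 76.6 and 56.5 in the IVF and PA 8-cell embryos. Of 13 cumulus cell markers, 6 were in the table, where CYP19A1, STAR and VCAN reached 1 and the sums per embryo were 0.181 to 19.2. The sperm markers in the table, AKAP4 and ODF2, summed to at most 5.18 apart from 10.9 in the IVF 8-cell embryo, and the 2 blood markers in the table to at most 1.76 in any embryo. PA 4-cell blastomere 1-4 nearly repeated PA 2-cell blastomere 1-2, and PA 4-cell blastomere 2-1 nearly repeated PA 2-cell blastomere 2-1 (Pearson's r of log2 values 0.999 in both pairs, against at most 0.931 for any other pair of cells). Most counts of called members and the values of several genes are therefore also given without these 2 blastomeres, while sums, shares of blastomeres and the gene lists include all cells. The part of markers, mitochondrial share and depth in the results was not tested.

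For 81 of the 83 genes, RefSeq (Sscrofa11.1, the build of the table) has a gene of the same symbol at the same position. The exceptions were UBE2L5P, which lies at the RefSeq gene UBE2L3 (chr14:50264868-50315445), and UBE2N, whose entry lies on the X chromosome (chrX:110826333-110826781) at another RefSeq locus, so its values say nothing about the RefSeq gene UBE2N. The entry FBXO22 spans the RefSeq genes UBE2Q2, FBXO22 and NRG4, so its reads are uncertain. A further 11 genes of these families, UBE2A, UBE2D1 and UBE2E1 among them, were in the table without their family name and were not taken. Gene bodies of several members overlap a gene on the opposite strand, and whether counting used strand is not given in the sources used here. Across the 42 cells, log2(FPKM + 1) went with that of the overlapping gene for CUL9 (Pearson's r = 0.99, with DNPH1, though CUL9 was above 0 in 2 cells and reached 1 FPKM in 1), FBXW8 (r = 0.89), FBXW7 (r = 0.88, with a partner of up to 4816 FPKM), UBE2Z (r = 0.81, with SNF8), FBXO46 (r = 0.78, with QPCTL) and FBXO25 (r = 0.74). It did so too for UBE2O (r = 0.81, with SPHK1), which stayed below 1 FPKM, and for FBXO40 (r = 1.00, with HCLS1), which was above 1 FPKM in 1 cell alone, at 4.91. Overlap of exons was not examined, so whether reads of 1 gene were counted for the other there is not known. The values of a cell share its library and depth. UBE2B, CUL4B and UBE2V2 had r of 0.12, 0.06 and 0.40 with theirs.

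The 250 bases upstream of the RefSeq start are shown for 6 genes on which the comparisons of stages turn and for which no RefSeq gene lies in the window. UBE2V1 and UBE2V2 are paralogs, UBE2C serves the anaphase-promoting complex, and UBE2B, FBXO46 and FBXO5 were high at the 8-cell stage. The windows are UBE2V1 at chr17:51664499-51664748 (minus strand), UBE2V2 at chr4:79652503-79652752 (minus strand), UBE2C at chr17:48018153-48018402 (plus strand), UBE2B at chr2:136652514-136652763 (plus strand), FBXO46 at chr6:52069191-52069440 (minus strand) and FBXO5 at chr1:13466711-13466960 (plus strand), all of Sscrofa11.1, written 5′ to 3′ on the gene's strand. Capitals mark matches on either strand to TATAAA, the TATA box, to CCAAT, the NF-Y box, to GGGCGG, the GC box, to TTTGAA, a cell cycle element, and to TTTCCCGC or the related letters TTTGGCGC, both of E2F type.
UBE2V1: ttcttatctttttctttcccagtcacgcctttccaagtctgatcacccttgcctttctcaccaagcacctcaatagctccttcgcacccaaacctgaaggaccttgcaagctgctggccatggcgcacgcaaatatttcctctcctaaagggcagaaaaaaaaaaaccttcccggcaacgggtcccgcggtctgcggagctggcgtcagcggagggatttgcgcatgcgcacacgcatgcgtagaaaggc
UBE2V2: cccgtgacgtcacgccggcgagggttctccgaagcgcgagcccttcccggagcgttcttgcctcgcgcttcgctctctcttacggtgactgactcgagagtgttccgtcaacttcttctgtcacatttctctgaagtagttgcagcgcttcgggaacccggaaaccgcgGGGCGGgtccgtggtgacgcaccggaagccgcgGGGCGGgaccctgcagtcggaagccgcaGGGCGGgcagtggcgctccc
UBE2C: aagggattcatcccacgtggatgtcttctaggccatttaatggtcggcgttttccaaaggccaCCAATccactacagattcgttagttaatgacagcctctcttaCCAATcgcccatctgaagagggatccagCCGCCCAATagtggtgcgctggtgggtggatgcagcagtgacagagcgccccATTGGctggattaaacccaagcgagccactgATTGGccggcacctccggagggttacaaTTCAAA
UBE2B: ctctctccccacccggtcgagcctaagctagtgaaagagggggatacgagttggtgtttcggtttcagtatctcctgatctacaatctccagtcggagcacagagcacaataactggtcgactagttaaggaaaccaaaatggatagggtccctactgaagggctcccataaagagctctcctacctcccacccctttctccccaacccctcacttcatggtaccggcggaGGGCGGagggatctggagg
FBXO46: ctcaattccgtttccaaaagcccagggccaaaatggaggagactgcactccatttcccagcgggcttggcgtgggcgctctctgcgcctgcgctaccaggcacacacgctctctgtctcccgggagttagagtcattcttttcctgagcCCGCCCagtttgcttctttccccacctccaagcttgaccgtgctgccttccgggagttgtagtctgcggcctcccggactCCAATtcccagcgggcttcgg
FBXO5: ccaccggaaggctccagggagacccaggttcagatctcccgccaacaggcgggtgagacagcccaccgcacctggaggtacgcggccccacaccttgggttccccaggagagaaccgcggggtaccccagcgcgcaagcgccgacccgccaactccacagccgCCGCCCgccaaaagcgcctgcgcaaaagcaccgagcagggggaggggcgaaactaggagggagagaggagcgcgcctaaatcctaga
The UBE2C window held 5 CCAAT matches, of which 1 overlaps a GGGCGG match, and a TTTGAA match that ends at the RefSeq start. UBE2V2 held 3 GGGCGG matches, FBXO46 a GGGCGG and a CCAAT match, UBE2B and FBXO5 1 GGGCGG match each, and UBE2V1 none of the letters searched. Among 19556 windows of protein-coding genes with every base known, 31.9% held CCAAT, 45.9% GGGCGG, 12.5% TTTGAA, 9.77% TATAAA, 1.42% TTTCCCGC and 0.573% TTTGGCGC. The same shares over the 81 windows of these families were 28.4%, 63%, 9.88%, 6.17%, 1.23% and 0%, at a median GC content of 62.8% against 57.6%. A match is a string of letters and not a measured binding site.

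Fewer of these genes reached an FPKM of 1 at later stages. Their number was 40.3 ± 4.73 (SD, n = 3) in IVF 1-cell embryos, 40.7 ± 2.08 at the 2-cell stage, 35.3 ± 3.79 at the 4-cell stage and 18 in the 8-cell embryo. In PA embryos it was 41.3 ± 0.577, 34.0 ± 2, 28.3 ± 2.89 and 27, and the PA 4-cell value was 18.3 ± 12.4 without the repeated blastomeres. Of all nuclear genes, 35.3, 33.3, 28.3 and 21.5% reached an FPKM of 1 in IVF and 31.7, 26.5, 23.0 and 20.3% in PA embryos. Among them 6 reached an FPKM of 1 in all 20 embryos, 16 did so in no cell, and FBXO44 was listed at 0 in every cell. The summed FPKM of the 83 genes was 1257, 1325, 1002 and 325 in IVF and 933, 926, 608 and 910.0 in PA embryos from the 1- to the 8-cell stage. This was 1.12, 1.23, 0.923 and 0.234% of nuclear FPKM in IVF and 0.934, 0.916, 0.660 and 0.704% in PA. The UBE2 genes held the largest part of this sum in every group, and UBE2D3 alone held 15.7 to 23.7% of it up to the 4-cell stage.

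Changes were tested with limma on log2(FPKM + 1) over the 8116 genes that reached an FPKM of 1 in 3 or more cells, among them 57 of the 83 members. A gene was called when its adjusted p (Benjamini-Hochberg) was below 0.05 and its fold change at least 2. Every log2 value given with a test is a difference on this scale, which understates the change of low genes. From the 1- to the 2-cell stage, with IVF and PA averaged, limma called 0 members and 0.0% of all genes in either direction, while 3 members, all lower, and 377 genes had an unadjusted p below 0.05. From the 2- to the 4-cell stage it called 3 members lower and 0 higher, against 2.35% and 1.79% of all genes (4.14% in either direction). From the 4- to the 8-cell stage 6 members were lower and 4 higher, against 5.34% and 7.27% of all genes (12.6% in either direction). From the 1- to the 8-cell stage 16 were lower and 4 higher, against 15.3% and 10.2% of all genes (25.5% in either direction). The members' median log2 difference was -0.45, -0.41 and -0.79 in these 3 comparisons, against -0.24, -0.29 and -0.63 over all genes tested.

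These splits depended on the scaling between cells. With each cell scaled by its median ratio over the nuclear genes above 0 in every cell, 53 members were tested. Then 2 fell and 3 rose from the 2- to the 4-cell stage, 4 fell and 10 rose from the 4- to the 8-cell stage, and 6 fell and 14 rose from the 1- to the 8-cell stage. Over all genes tested, 57 fell and 579 rose, 400 fell and 1477 rose, and 318 fell and 2127 rose in these comparisons. The median log2 difference of all genes moved from -0.24 to 0.39, from -0.29 to -0.09 and from -0.63 to 0.27 in these comparisons. Without the repeated blastomeres, 9 members fell and 0 rose from the 2- to the 4-cell stage (9.07% and 2.54% of all genes), and 4 fell and 6 rose from the 4- to the 8-cell stage (3.18% and 7.44%). Between the 1- and the 8-cell stage 14 fell and 4 rose (14.7% and 9.94%), without CUL4B and FBXL5. FPKM are shares of the RNA of a cell, so fewer transcripts of a gene and more of all others cannot be told apart.

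UBE2D3, an E2 that works with many different ligases, was the most abundant member. In IVF embryos it stood at 276, 232 and 279 FPKM at the 1-cell stage, 297, 332 and 315 at the 2-cell stage, 367, 87.2 and 93.8 at the 4-cell stage and 18.7 in the 8-cell embryo. In PA embryos it stood at 142, 207 and 204 at the 1-cell stage, 196, 206 and 212 at the 2-cell stage, 126, 121 and 39.9 at the 4-cell stage and 11.4 in the 8-cell embryo. Both 8-cell embryos lay below every other embryo of their method, while among IVF 4-cell embryos 1 lay above and the others below all earlier IVF embryos, and all PA 4-cell embryos lay below the earlier PA embryos. The fall from the 4- to the 8-cell stage was 2.84 on the log2 scale (SE 0.54, limma, adjusted p = 0.00134), with 2.88 in IVF (adjusted p = 0.0256) and 2.79 in PA (adjusted p = 0.0247), each by limma. The fall in IVF alone was called in 7 of 11 alternatives, and not under median-ratio scaling, averaged log2 values, the random effect or the compared groups alone, where it went down to 1.29 (limma, adjusted p up to 0.608). The fall in PA alone was no longer called without the repeated blastomeres or without PA 4-cell embryo 1 or 2 (adjusted p up to 0.0576).

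UBE2V1 and UBE2V2 are E2 variants without the active cysteine, which pair with UBE2N to build chains on lysine 63 of ubiquitin. UBE2V2 stood at 36.8, 27.4 and 43.8 FPKM at the 1-cell stage, 50.01, 32.7 and 42.2 at the 2-cell stage, 0.625, 1.69 and 2.1 at the 4-cell stage and 0.129 in the 8-cell embryo in IVF. In PA it stood at 53.3, 35.5 and 18.3 at the 1-cell stage, 71.7, 13.7 and 48.1 at the 2-cell stage, 45.9, 0.42 and 1.69 at the 4-cell stage and 0.618 in the 8-cell embryo. All IVF 4-cell embryos lay far below all IVF 2-cell embryos, and so did PA 4-cell embryos 2 and 3, while PA 4-cell embryo 1 did not. In that embryo 1 blastomere was at 0.0781 FPKM and the other, the near repeat of a 2-cell blastomere, at 91.7 FPKM. The fall from the 2- to the 4-cell stage was 3.43 on the log2 scale (SE 0.68, limma, adjusted p = 0.00832), and without the repeated blastomeres it was 4.38 (SE 0.50, limma, adjusted p = 2.57e-05) and was called in PA alone as well (-4.62, limma, adjusted p = 0.000648). UBE2V1 stood at 75.96, 80.8 and 105 FPKM at the 1-cell stage, 184, 55.3 and 193 at the 2-cell stage, 29.3, 34.9 and 50.9 at the 4-cell stage and 13.04 in the 8-cell embryo in IVF. In PA it stood at 91.3, 74.3 and 139 at the 2-cell stage, 59.7, 41.7 and 85.9 at the 4-cell stage and 88.7 in the 8-cell embryo. Without the repeated blastomeres PA 4-cell embryos 1 and 2 were at 10.1 and 34.2 FPKM. The difference of UBE2V1 between the 2- and the 4-cell stage was -1.21 (limma, adjusted p = 0.0859) and was called, at -1.67, without the repeated blastomeres (limma, adjusted p = 0.0359). Whether both paralogs differed in their change was not tested.

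UBE2B, a RAD6 homolog that ubiquitinates histone H2B and the DNA replication clamp, was lowest on average at the 4-cell stage and high at the 8-cell stage. In IVF embryos it stood at 7.66, 2.45 and 0.704 FPKM at the 1-cell stage, 4.9, 0.126 and 3.73 at the 2-cell stage, 0.11, 0.0314 and 0.0261 at the 4-cell stage and 19.3 in the 8-cell embryo. In PA embryos it stood at 1.22, 2.12 and 0.22 at the 1-cell stage, 2.16, 0.523 and 0.115 at the 2-cell stage, 0.0392, 0.31 and 0.00777 at the 4-cell stage and 23.4 in the 8-cell embryo. Both 8-cell embryos lay above every earlier embryo. The rise from the 4- to the 8-cell stage was 4.36 on the log2 scale (SE 0.78, limma, adjusted p = 0.000714) and was called in IVF and in PA. The averaged comparison kept this call under all 11 alternative settings and with each of 18 embryos left out in turn.

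**Figure D1:**
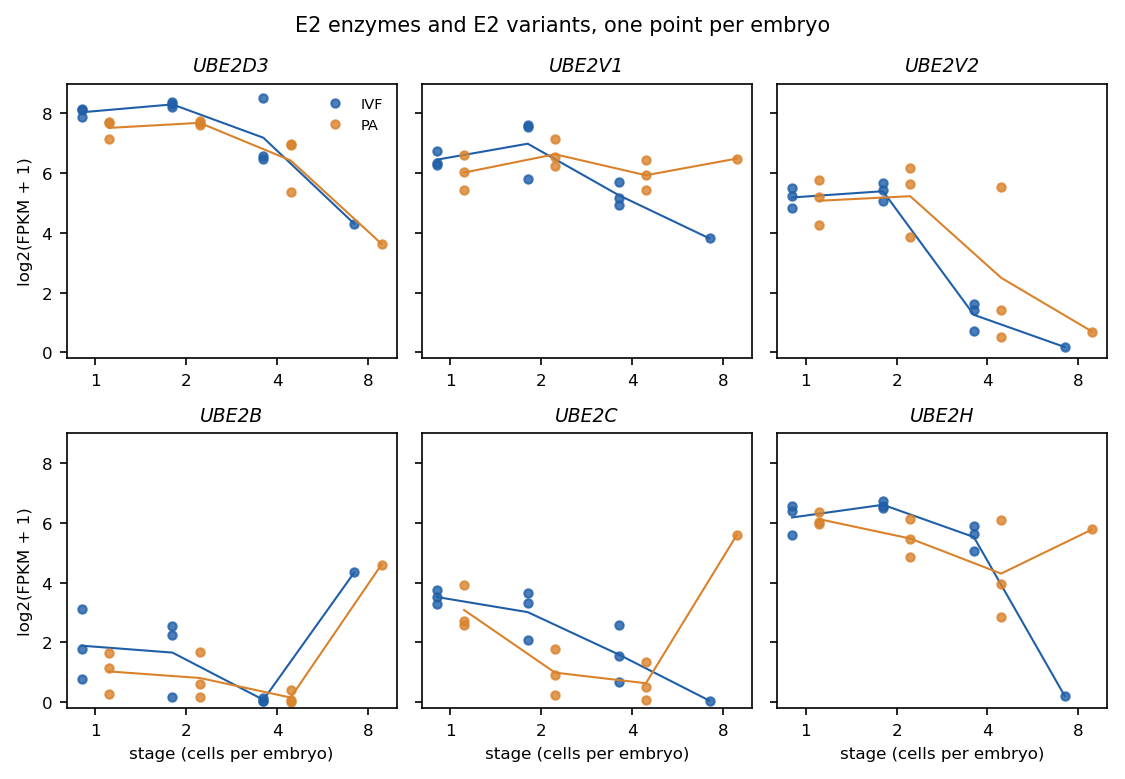
Level of 6 E2 genes, as log2(FPKM + 1) of each embryo (points) by number of cells per embryo, in IVF (blue) and PA (orange), with lines through the group means. UBE2V2 drops at the 4-cell stage apart from PA embryo 1 at 45.9 FPKM, UBE2B rises in both 8-cell embryos, and UBE2C and UBE2H part between the IVF and PA 8-cell embryos.

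UBE2C, UBE2H and UBE2J2 differed between the IVF and PA embryos in their step from 4 to 8 cells. UBE2C, which places the first ubiquitins for the anaphase-promoting complex, stood at 10.3, 12.5 and 8.83 FPKM at the 1-cell stage, 8.94, 3.21 and 11.6 at the 2-cell stage, 4.99, 0.584 and 1.91 at the 4-cell stage and 0.0338 in the 8-cell embryo in IVF. In PA it stood at 5.63, 14.3 and 5.02 at the 1-cell stage, 2.46, 0.891 and 0.191 at the 2-cell stage, 1.52, 0.0424 and 0.418 at the 4-cell stage and 47.4 in the 8-cell embryo. The PA 8-cell embryo was above, and the IVF 8-cell embryo below, every earlier embryo, although PA 4-cell embryo 1 was listed at 0 without its repeated blastomere. UBE2H, the E2 of the CTLH ligase, stood at 47.2, 82.9 and 93.8 FPKM at the 1-cell stage, 106, 89.3 and 94.7 at the 2-cell stage, 58.1, 32.5 and 48.6 at the 4-cell stage and 0.153 in the 8-cell embryo in IVF. PA embryos had 82.2, 61.96 and 63.9 at the 1-cell stage, 42.6, 69.1 and 27.95 at the 2-cell stage, 14.6, 66.8 and 6.29 at the 4-cell stage and 53.98 in the 8-cell embryo. The IVF 8-cell embryo lay below all others, while the PA 8-cell embryo lay within the range of earlier PA embryos. Without its repeated blastomere PA 4-cell embryo 1 was at 0.931 FPKM of UBE2H. UBE2J2, an E2 of the endoplasmic reticulum membrane, was at 4.47, 0.152 and 1.96 FPKM in IVF and 0.0332, 0.0384 and 0 in PA 4-cell embryos, and at 0.516 and 33.9 in the IVF and PA 8-cell embryos. In the average of both methods its rise (2.14, limma, adjusted p = 0.0424) was called in 4 of 11 alternatives and with 5 of 18 embryos left out, all PA 1-cell embryos and IVF 4-cell embryos 1 and 3 (adjusted p up to 0.06). The rise was called in PA alone (5.09, limma, adjusted p = 0.00179), as was that of UBE2C (4.96, limma, adjusted p = 0.00449).

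Among other E2 genes, UBE2G1, which extends lysine 48 chains on cullin ligase substrates, was at 53.03, 73.8 and 57.6 FPKM in IVF and 34.3, 2.07 and 69.8 in PA 4-cell embryos and at 73.04 and 61.8 in the IVF and PA 8-cell embryos, and no comparison of the main fit called it. Under median-ratio scaling its rise from the 1- to the 8-cell stage was called (3.45). Without the repeated blastomeres PA 4-cell embryos 1 and 2 were at 0.105 and 0.478 FPKM. UBE2K, which makes lysine 48 chains, rose in PA from the 4- to the 8-cell stage (2.47, limma, adjusted p = 0.0352), from at most 0.0579 to 4.65 FPKM, and was called in 4 of the 10 alternatives that tested it and not without PA 4-cell embryo 1 or 3 (adjusted p up to 0.0624). UBE2E3 fell over the same step (-3.61, limma, adjusted p = 0.0439), from 2.2, 23.96 and 25.6 to 0.0513 FPKM, and was called in 3 of 11 alternatives and with 5 of 18 embryos left out (PA 2-cell 3, PA 4-cell 1 and any IVF 4-cell embryo; adjusted p up to 0.0976 otherwise). The entry UBE2L5P, at the locus of the E2 UBE2L3, was at 12.8 and 13.3 FPKM in the 8-cell embryos and at 0.00495 to 16.9 before, with a call only when the repeated blastomeres were left out (3.10 from the 4-cell stage, limma, adjusted p = 0.0465) or under median-ratio scaling. UBE2S, which lengthens the chains begun by UBE2C, stayed below an FPKM of 1 in every cell, as did UBE2J1 and UBE2O. UBE2M, an E2 of NEDD8, reached it in 1 cell, and UBE2F is not analysed here.

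CUL4B, the scaffold of ligases that use DDB1, was on average the most abundant cullin, and the called member with the largest difference between IVF and PA in the last step. In IVF embryos it stood at 55.2, 76.5 and 60.8 FPKM at the 1-cell stage, 53.8, 36.6 and 65.5 at the 2-cell stage, 49.5, 23.6 and 79.8 at the 4-cell stage and 0.12 in the 8-cell embryo. In PA embryos it stood at 73.1, 62.3 and 35.8 at the 1-cell stage, 31.2, 49.8 and 46.8 at the 2-cell stage, 15.5, 103 and 49.1 at the 4-cell stage and 142 in the 8-cell embryo. Without its repeated blastomere PA 4-cell embryo 1 was at 0.518 FPKM. The IVF 8-cell embryo lay below, and the PA 8-cell embryo above, every earlier embryo. In IVF it fell by 5.37 on the log2 scale (SE 0.90, limma, adjusted p = 0.000717), while the PA difference was 1.70 (limma, adjusted p = 0.31). The fall in IVF was called in 9 of 11 alternatives, and not under median-ratio scaling or with the compared groups alone. CUL4A was at 1.07 to 4.87 FPKM in IVF 1- and 2-cell embryos and at 1.08, 0 and 1.45 in PA 1-cell embryos, was listed at 0 in all PA 2-cell embryos and stood at 0.0099 and 0 in the 8-cell embryos, and no comparison called it.

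CUL3, which takes its substrates through BTB proteins, stood at 26.4, 35.7 and 34.8 FPKM at the 1-cell stage, 15.8, 22.9 and 22.8 at the 2-cell stage, 29.4, 72.5 and 46.5 at the 4-cell stage and 5.15 in the 8-cell embryo in IVF. In PA it stood at 8.65, 19.6 and 16.2 at the 1-cell stage, 4.67, 4.28 and 24.7 at the 2-cell stage, 6.94, 3.88 and 8.11 at the 4-cell stage and 1.96 in the 8-cell embryo. IVF and PA 4-cell embryos did not overlap, and limma gave a difference of 2.74 (adjusted p = 0.0611), which was called, at 2.53, without the repeated blastomeres (adjusted p = 0.0431). CUL3 fell from the 1- to the 8-cell stage by 2.39 on the log2 scale (SE 0.66, limma, adjusted p = 0.0115), which turned to a difference of 0.38 under median-ratio scaling, as that of CUL4B turned from -2.25 to 1.00. The fall from the 4- to the 8-cell stage was called (-2.10, limma, adjusted p = 0.0411) but held in 5 of 11 alternatives. It was lost without any 1 of the IVF 1- and 2-cell embryos, PA 1-cell embryos 2 and 3 and PA 4-cell embryo 1 (adjusted p up to 0.057).

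CUL1, the scaffold that binds F-box proteins through SKP1, was at 0.207 to 6.96 FPKM before the 8-cell stage and at 2.07 and 17.6 in the IVF and PA 8-cell embryos, with no call in the main fit. Under median-ratio scaling its rise from the 1- to the 8-cell stage was called (3.28). CUL2 and CUL5 bind their substrates through elongins B and C. CUL2 was below 0.5 FPKM in all 1- and 2-cell embryos, at 0.00544, 3.48 and 11.6 in IVF and 0.5, 51.5 and 0.0314 in PA 4-cell embryos, and at 0.00631 and 38.4 in the 8-cell embryos, so its groups overlapped and it was not called in the main fit. Under median-ratio scaling its rise was called from the 1- to the 8-cell stage (4.30) and from the 4- to the 8-cell stage in PA (5.86). CUL5 was at 8.41, 24.2 and 25.8 FPKM in IVF and 16.6, 4.18 and 11.9 in PA 4-cell embryos, and at 7.75 and 1.34 in the 8-cell embryos, also without a call. Without its repeated blastomere PA 4-cell embryo 1 was at 0.0935 FPKM of CUL5. CUL7 reached at most 7.85 FPKM in an embryo, and CUL9 passed an FPKM of 1 in 1 cell.

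**Figure D2:**
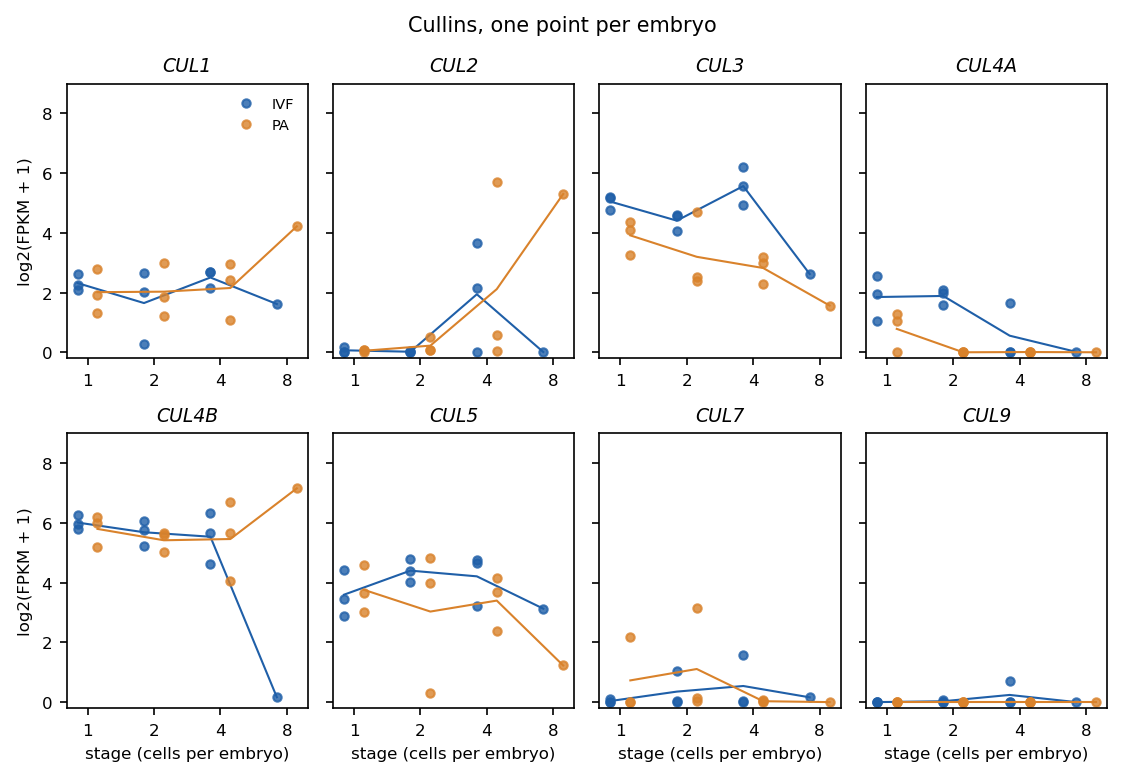
Level of the 8 cullin genes, as log2(FPKM + 1) of each embryo (points) by number of cells per embryo, in IVF (blue) and PA (orange), with lines through the group means. CUL4B is at 0.12 FPKM in the IVF and 142 FPKM in the PA 8-cell embryo, CUL2 is near 0 before the 4-cell stage, and CUL7 and CUL9 are near 0 in most embryos.

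The F-box genes included both inhibitors of the anaphase-promoting complex of the EMI type, and these moved in opposite directions in the last step. FBXO43 (EMI2), which holds the egg in metaphase II until it is activated, stood at 46.3, 171 and 135 FPKM at the 1-cell stage, 101, 92.3 and 118 at the 2-cell stage, 128, 21.3 and 115 at the 4-cell stage and 0.278 in the 8-cell embryo in IVF. In PA it stood at 42.2, 86.3 and 64.1 at the 1-cell stage, 42.3, 54.2 and 27.5 at the 2-cell stage, 17.1, 27.4 and 9.42 at the 4-cell stage and 0.0656 in the 8-cell embryo. Both 8-cell embryos lay below all earlier embryos, and the fall from the 4-cell stage was 4.90 on the log2 scale (SE 0.69, limma, adjusted p = 6.35e-05). Without the repeated blastomeres PA 4-cell embryo 1 was at 0.484 FPKM, and the fall was 4.17 (SE 0.86, limma, adjusted p = 0.00293). The oocyte markers were lowest in the same 2 embryos, and their part in this fall was not tested. FBXO5 (EMI1), which holds the complex in check outside mitosis, stood at 56.6, 39.5 and 32.02 FPKM at the 1-cell stage, 29.6, 19.7 and 36.5 at the 2-cell stage, 16.98, 32.3 and 15.97 at the 4-cell stage and 74.8 in the 8-cell embryo in IVF. PA embryos had 6.81, 15.4 and 31.8 at the 1-cell stage, 15.2, 16.5 and 17.99 at the 2-cell stage, 12.1, 9.32 and 2.12 at the 4-cell stage and 62.7 in the 8-cell embryo. Both 8-cell embryos lay above all earlier embryos, and the rise from the 4-cell stage was 2.45 (SE 0.65, limma, adjusted p = 0.0162). The fall of FBXO43 was called under all 11 alternatives and the rise of FBXO5 under 10, all but the fit of the compared groups alone, and both with each of 18 embryos left out. From the 1- to the 8-cell stage FBXO5 was not called (1.41, limma, adjusted p = 0.119), while it was called, at 4.92, under median-ratio scaling.

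FBXO21, FBXL17 and FBXO30 were lower in both 8-cell embryos than in all 4-cell embryos. FBXO21, a substrate receptor of CUL1 ligases, was at 28.2, 47.7 and 16.9 FPKM in IVF and 17.5, 36.3 and 39.1 in PA 4-cell embryos, and at 0.0498 and 0.0667 in the 8-cell embryos, a fall of 4.82 on the log2 scale (SE 0.62, limma, adjusted p = 2.34e-05) that all 11 alternatives called (-4.18 without the repeated blastomeres, where PA 4-cell embryo 1 was at 0.298 FPKM). FBXL17, which removes wrongly paired BTB proteins, stood at 52.1, 25.7 and 83.001 FPKM at the 1-cell stage, 62.8, 50.9 and 66.5 at the 2-cell stage, 10.1, 2.72 and 19.6 at the 4-cell stage and 0.122 in the 8-cell embryo in IVF. PA embryos had 81.4, 83.1 and 62.6 at the 1-cell stage, 138, 87.1 and 36.8 at the 2-cell stage, 56.04, 37.02 and 2.69 at the 4-cell stage and 0.11 in the 8-cell embryo. It fell from the 1- to the 8-cell stage by 5.78 (SE 0.87, limma, adjusted p = 8e-05) and from the 4- to the 8-cell stage by 3.62 (SE 0.87, limma, adjusted p = 0.00799), a call lost without the repeated blastomeres. Its fall from the 2- to the 4-cell stage was 2.32 (SE 0.61, limma, adjusted p = 0.0374). The call held with 6 of 18 embryos left out, IVF 1-cell 2, IVF 4-cell 1 and 3, PA 2-cell 3 and PA 4-cell 1 and 2 (adjusted p up to 0.101 otherwise), and was 3.30 without the repeated blastomeres (limma, adjusted p = 0.00289). FBXO30 was at 1.70 to 18.7 FPKM in 4-cell embryos and at 0.106 and 0.0464 in the 8-cell embryos (-2.54, limma, adjusted p = 0.0209), a call that held in 4 of 11 alternatives. It was lost without the repeated blastomeres, where PA 4-cell embryo 1 was at 0.0370 FPKM, below both 8-cell embryos.

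Over the longer span from the 1- to the 8-cell stage, 8 further F-box genes fell in limma. FBXO21 (-4.98, adjusted p = 9.32e-06) and FBXO30 (-3.36, adjusted p = 0.00175) did so by limma as in the last step. FBXO15, a marker of mouse pluripotent cells, changed by -3.95 (limma, adjusted p = 0.00961) and FBXO42 by -3.90 (limma, adjusted p = 0.00552). FBXW8, the partner of CUL7, changed by -3.84 (limma, adjusted p = 0.00319) and the uncertain entry FBXO22 by -3.48 (limma, adjusted p = 0.00181). FBXL5, which senses iron, changed by -2.64 (limma, adjusted p = 0.0124), although the PA 8-cell embryo lay above all PA 1-cell embryos. FBXW8 had fallen by the 4-cell stage, from 33.98, 19.9 and 20.1 to 7.25, 0.118 and 5.15 FPKM in IVF and from 0.578, 7.98 and 21.1 to 0.0142, 0.315 and 0.0774 in PA embryos (-2.64, limma, adjusted p = 0.0202). The call was lost without IVF 2-cell embryo 1 or PA 2-cell embryo 3 (adjusted p up to 0.0635). UBE2V2 (-4.69, adjusted p = 0.00146) and UBE2H (-3.16, adjusted p = 0.00167) fell over this span in limma, as did UBE2D3 (-3.81, adjusted p = 4.51e-05). For UBE2H the IVF 8-cell embryo was at 0.153 FPKM. The PA 8-cell embryo was at 53.98 FPKM of UBE2H, against 61.96 to 82.2 in PA 1-cell embryos. Under median-ratio scaling FBXO15, FBXO42, FBXL5, FBXO30, UBE2V2, UBE2H, CUL3 and CUL4B were not called, while FBXO43, FBXL17, FBXO21, FBXW8, FBXO22 and UBE2D3 still fell.

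FBXO46 and FBXW7 rose. FBXO46 was at 1.23, 2.48 and 0.00403 FPKM in IVF and 0.0611, 0.0458 and 0.0353 in PA 4-cell embryos, and at 8.15 and 33.4 in the 8-cell embryos, above all earlier embryos, a rise of 3.62 on the log2 scale (SE 0.68, limma, adjusted p = 0.00107). FBXW7, which targets cyclin E and MYC, stood at 0.00784, 0.026 and 1.28 FPKM at the 1-cell stage, 0.448, 0.585 and 0.264 at the 2-cell stage, 0.118, 0.0735 and 43.4 at the 4-cell stage and 14.98 in the 8-cell embryo in IVF. In PA it stood at 2.3, 0.94 and 0.704 at the 1-cell stage, 1.92, 1.0 and 0.0199 at the 2-cell stage, 1.81, 0.499 and 8.33 at the 4-cell stage and 86.4 in the 8-cell embryo. IVF 4-cell embryo 3 was above the IVF 8-cell embryo, so the step from 4 to 8 cells overlapped, and the rise from the 1- to the 8-cell stage was 4.44 (SE 1.11, limma, adjusted p = 0.0062) and was called in all 11 alternatives. Both genes are among those whose FPKM went with that of an overlapping gene.

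FBXW11 (β-TrCP2), which targets β-catenin and the EMI1 protein, was at 0.226, 0.0363 and 14.5 FPKM in IVF and 3.12, 0.158 and 0.304 in PA 4-cell embryos and at 0.0454 and 16.03 in the 8-cell embryos. FBXL20 was at 27.97, 0.712 and 6.55 FPKM in IVF and 0.0951, 6.87 and 28.4 in PA 4-cell embryos and at 0.0355 and 24.99 in the 8-cell embryos. Neither was called in the main fit, and in both the PA 8-cell embryo stood far above the IVF 8-cell embryo. Under median-ratio scaling the rises of FBXW11 (6.02) and FBXL20 (4.80) from the 4- to the 8-cell stage were called in PA. Their change in IVF minus that in PA was called there too (-7.00 and -7.48). FBXO33 stood at 26.7, 31.3 and 19.5 FPKM at the 1-cell stage, 10.8, 29.7 and 25.04 at the 2-cell stage, 71.4, 75.8 and 82.6 at the 4-cell stage and 29.5 in the 8-cell embryo in IVF. PA embryos had 27.6, 15.5 and 31.04 at the 1-cell stage, 3.63, 2.94 and 37.7 at the 2-cell stage, 2.16, 15.7 and 65.4 at the 4-cell stage and 11.99 in the 8-cell embryo. No comparison of the main fit called FBXO33, while under median-ratio scaling its rise from the 2- to the 4-cell stage was called (2.81). FBXO11 fell in IVF from 7.3, 51.3 and 34.3 FPKM at the 4-cell stage to 0.181 (-4.39, limma, adjusted p = 0.0298), a call that held in 4 of 11 alternatives and was lost without IVF 4-cell embryo 2 or 3 (adjusted p up to 0.0577).

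**Figure D3:**
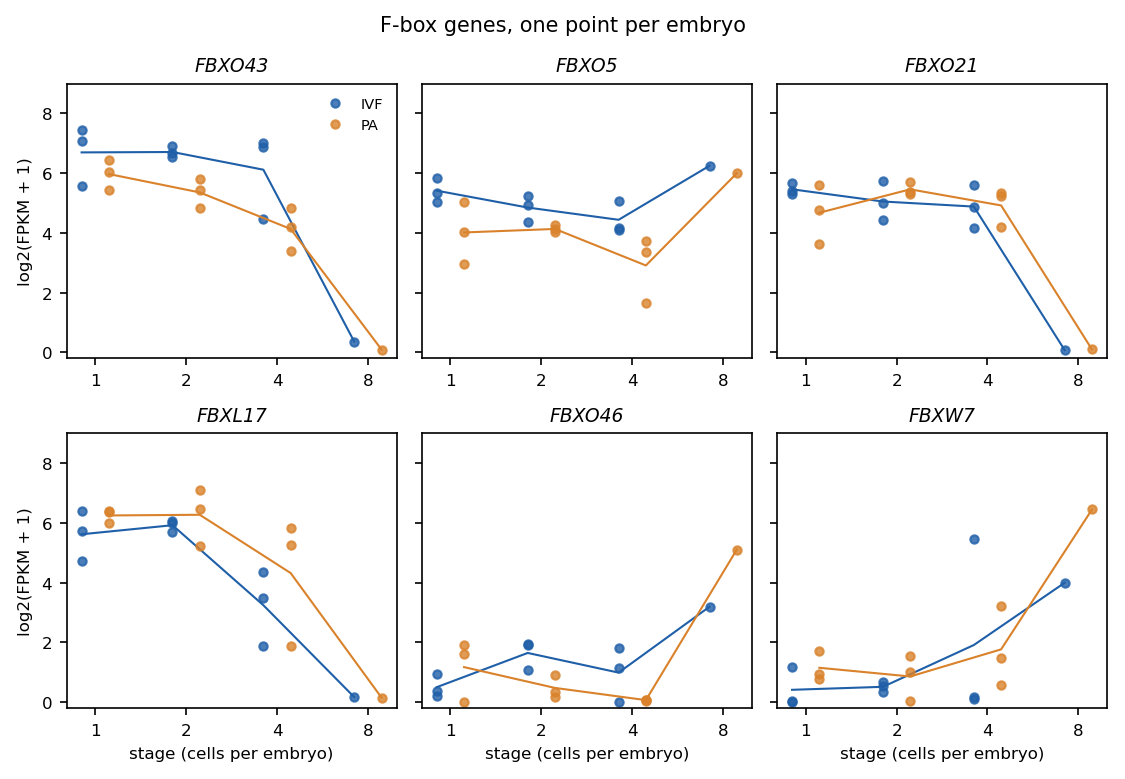
Level of 6 F-box genes, as log2(FPKM + 1) of each embryo (points) by number of cells per embryo, in IVF (blue) and PA (orange), with lines through the group means. FBXO43, FBXO21 and FBXL17 are below 0.3 FPKM in both 8-cell embryos, where FBXO5 and FBXO46 are higher than in any earlier embryo.

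Within IVF, limma called 1 member lower from the 2- to the 4-cell stage, UBE2V2 (-4.14, adjusted p = 0.0426), and 0 higher, against 0.493% and 0.616% of all genes (1.11% in either direction). That call held with 6 of 18 embryos left out, IVF 4-cell 1, PA 2-cell 1 and 2 and any PA 4-cell embryo (adjusted p up to 0.159 otherwise). In PA it called 0 members, against 0.0123% of all genes lower and 0.382% higher (0.394% in either direction), with 5 members at an unadjusted p below 0.05. Without the repeated blastomeres 4 members fell in PA (FBXL17, FBXO5 and UBE2V2 among them), against 6.26% of all genes. From the 4- to the 8-cell stage 7 members fell and 1 rose in IVF, against 3.25% and 3.72% of all genes (6.97% in either direction). In PA 5 fell and 6 rose, against 3.18% and 6.81% of all genes (9.99% in either direction). Under median-ratio scaling these were 3 and 4 in IVF, with 177 and 974 over all genes tested. In PA they were 4 and 16, with 334 and 1200 over all genes tested. Without the repeated blastomeres they were 0 and 7 in PA (1.63% and 8.1% of all genes). FBXO5 (3.09, limma, adjusted p = 0.0381) and FBXO46 (5.04, limma, adjusted p = 0.00202) were among the 6 that rose in PA, and FBXO5 was lost without IVF 1-cell embryo 2 or 3, IVF 2-cell embryo 1, PA 1-cell embryo 2 or PA 4-cell embryo 3 (adjusted p up to 0.0655).

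The change from the 4- to the 8-cell stage differed between the methods for 5 members, all lower in IVF than in PA, against 1.97% of all genes lower and 0.887% higher (2.86% in either direction). The difference of the changes (IVF minus PA, log2 scale) was -7.07 for CUL4B (SE 1.27, limma, adjusted p = 0.00618), -6.80 for UBE2H (SE 1.32, limma, adjusted p = 0.00971) and -6.51 for UBE2C (SE 1.49, limma, adjusted p = 0.0224). For UBE2J2 it was -5.90 (SE 1.35, limma, adjusted p = 0.0224). FBXL5, an iron-sensing F-box protein, was at 137, 24.5 and 58.4 FPKM in IVF 4-cell embryos and 0.688 in the 8-cell embryo, and at 20.8, 47.4 and 5.2 and 27.96 in PA embryos, a difference of -5.77 (SE 1.47, limma, adjusted p = 0.0419). The FBXL5 difference was called in 3 of 11 alternatives. It was lost without the repeated blastomeres, under nuclear rescaling and under median-ratio scaling, among others. It held with 7 of 18 embryos left out, IVF 4-cell 1 and 2, PA 2-cell 2 and 3 and any PA 4-cell embryo (limma, adjusted p up to 0.0603 otherwise). Under median-ratio scaling 12 members were called lower and 0 higher, with 534 genes lower and 508 higher over all genes tested. None of the 5 was called when log2 values were averaged over blastomeres, where a gene high in 1 of 3 blastomeres weighs less, when blastomeres were fitted with the embryo as a random effect, or when the compared groups were fitted alone. Each method has 1 8-cell embryo, so a difference of methods and a difference of these embryos cannot be told apart. By summed FPKM of Y chromosome genes, the authors called the IVF 8-cell embryo male and all PA embryos female. CUL4B lies on the X chromosome. The part of sex in these differences was not tested.

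**Figure D4:**
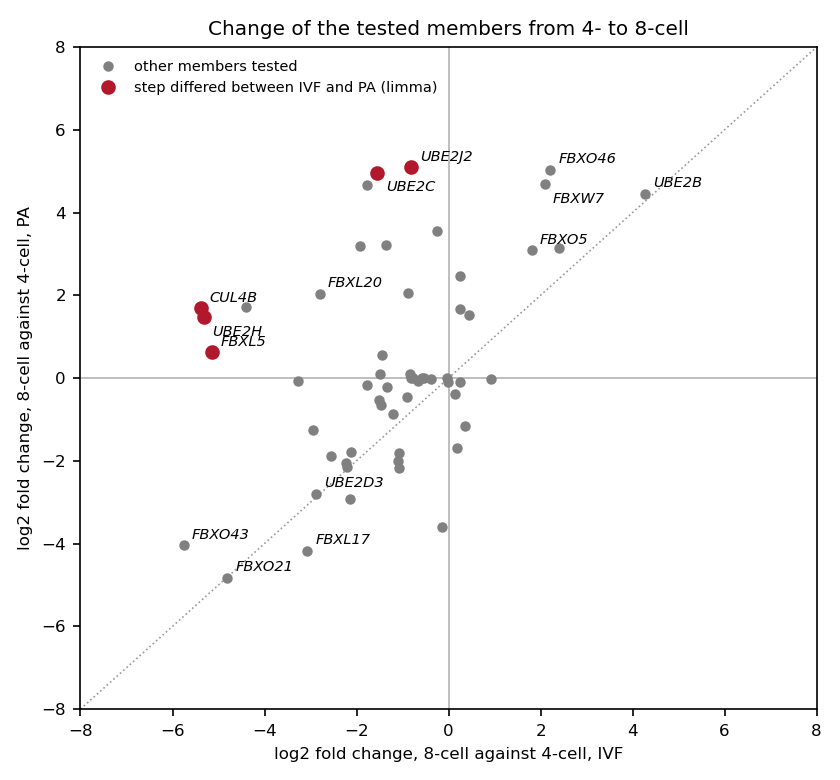
Change of the 57 tested members from the 4- to the 8-cell stage, as limma log2 fold changes of log2(FPKM + 1), in IVF (x axis) and PA (y axis). The dotted line marks equal change, red points are the 5 genes whose change differed between the methods, and UBE2B, FBXO21 and UBE2D3 lie near the line.

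At equal stages IVF and PA embryos gave no called member. The shares of all genes called were 0.0493% at the 1-cell stage (0.0123% higher and 0.037% lower in IVF), 0.0% at the 2-cell stage and 0.554% at the 4-cell stage (0.419% higher and 0.136% lower). In limma 3, 5 and 9 members had an unadjusted p below 0.05 at these stages. All 9 at the 4-cell stage were higher in IVF, with CUL3 the member with the smallest p. Without the repeated blastomeres 4 members were called higher in IVF 4-cell embryos and 0 lower, against 3.75% and 0.32% of all genes. Among them were FBXO43 (3.43, adjusted p = 0.0301), FBXO5 (2.84, adjusted p = 0.0319) and CUL3, each by limma. The step from the 2- to the 4-cell stage differed between the methods for 0 members and 0.0% of all genes, with 1 member at an unadjusted p below 0.05.

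The share of members found in every sequenced blastomere of an embryo was lower at the 4- and 8-cell stages than at the 2-cell stage, with 2 blastomeres sequenced per 2-cell embryo, 2 to 4 per 4-cell embryo and 3 per 8-cell embryo. Among members with an embryo mean of at least 1 FPKM, 75.4% were at 1 FPKM in both blastomeres of IVF 2-cell embryos, 26.4% in all sequenced blastomeres of IVF 4-cell embryos and 16.7% in all 3 of the IVF 8-cell embryo. In PA these shares were 65.7, 14.1 and 14.8%. Over all nuclear genes they were 64.5, 22.1 and 19.2% in IVF and 53.2, 16.8 and 17.3% in PA. The 8-cell shares are 3 of 18 members in IVF and 4 of 27 in PA. Transcripts missed in a single-cell library and transcripts missing from a blastomere cannot be told apart in these data.

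Several 8-cell levels came mostly from 1 blastomere. UBE2J2 was at 102, 0 and 0 FPKM in the 3 blastomeres of the PA 8-cell embryo, and UBE2B at 70.1, 0.0889 and 0 there and at 0, 46.6 and 11.3 in those of the IVF 8-cell embryo. UBE2C was at 2.8, 0.251 and 139, UBE2H at 0.167, 162 and 0, CUL4B at 377, 0.243 and 48.01 and FBXL5 at 0.0728, 0.372 and 83.4 FPKM in the PA blastomeres. None of UBE2C, UBE2H and CUL4B reached 0.2 FPKM in any IVF 8-cell blastomere. The low level of FBXO43 was shared, with 0.22, 0.417 and 0.199 FPKM in the IVF and 0.11, 0.0869 and 0 in the PA 8-cell blastomeres, as was the presence of FBXO5 in PA, with 102, 33.5 and 52.7 FPKM. In IVF FBXO5 was at 84.3, 140.1 and 0.0591 FPKM, so 1 of 3 blastomeres had next to none. PA 8-cell blastomere 1-4, the last of each PA list here, had 3481 genes above 0, the fewest of any cell. The other PA 8-cell blastomeres had 5656 and 5476. The part of this in its zeros, among them those of FBXO43, UBE2B, UBE2H and UBE2J2, was not tested.

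**Figure D5:**
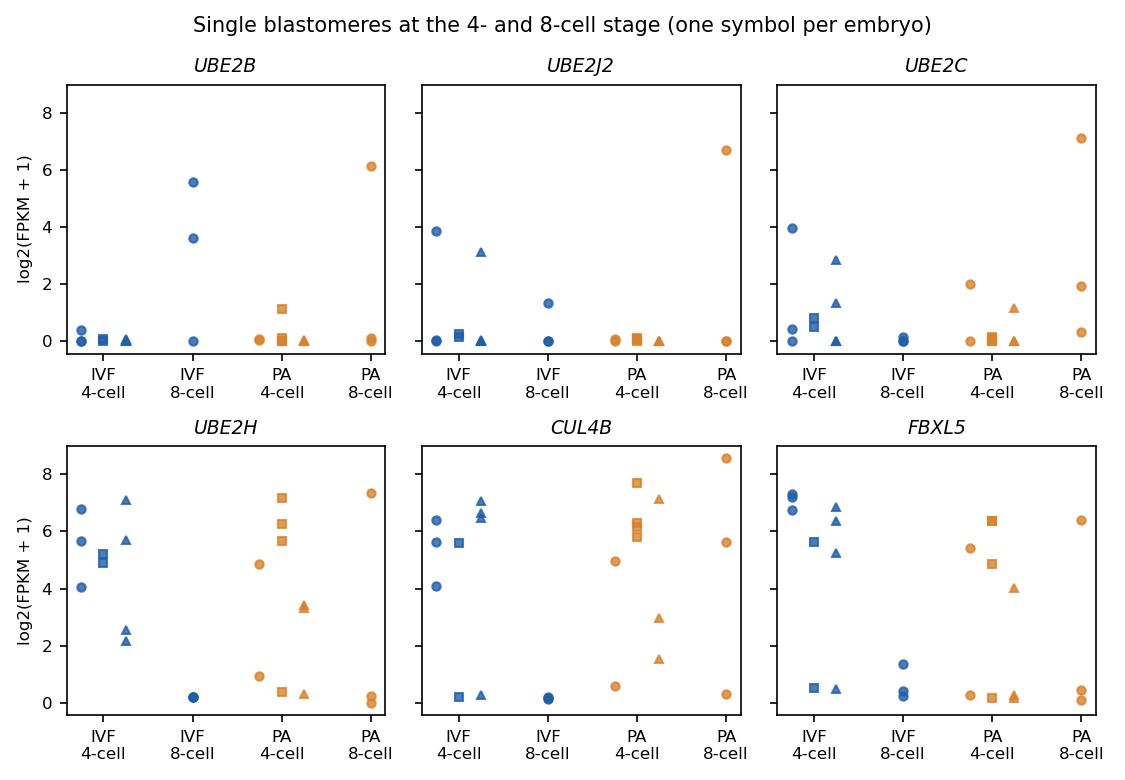
Level of 6 members in single blastomeres, as log2(FPKM + 1), at the 4- and 8-cell stage of IVF (blue) and PA (orange) embryos, with a different symbol for each embryo of a group. UBE2B, UBE2J2, UBE2H and FBXL5 are high in 1 of 3 PA 8-cell blastomeres, and values within 1 embryo span most of the range.

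Of the 26 members not tested, FBXL13 at 22.4 FPKM in IVF 4-cell embryo 1 and UBE2M at 9.46 FPKM in IVF 4-cell embryo 2 reached the highest values, and the others stayed at or below 3.13 FPKM in every embryo.

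Other genes of the pathway were counted by lists, from the main fit alone. Beside their calls, 7.27% of all genes rose and 5.34% fell from the 4- to the 8-cell stage. From the 1- to the 8-cell stage these shares were 10.2% and 15.3%, and from the 2- to the 4-cell stage 1.79% and 2.35%. Of 16 listed E1 enzymes and modifiers 10 were in the table and 9 tested, and from the 4- to the 8-cell stage SAE1, a subunit of the SUMO E1, rose (5.74, limma, adjusted p = 2.02e-05) while the polyubiquitin gene UBB fell (-2.41, limma, adjusted p = 0.0205). From the 1- to the 8-cell stage SAE1 (3.23) and the modifier NEDD8 (4.65) rose and SUMO2 (-2.67) fell. Of 21 listed cullin partners 20 were in the table and 16 tested. Over the last step DCAF13, a receptor of CUL4 ligases (4.88, limma, adjusted p = 0.00248), and ELOB, elongin B (2.20, limma, adjusted p = 0.031), rose and 0 fell. With each method taken alone, DCAF13 was called in PA only and ELOB in IVF only. From the 4- to the 8-cell stage mean ELOB went from 0.00875 to 12.2 FPKM in IVF and from 0 to 0.624 FPKM in PA. From the 1- to the 8-cell stage DCAF13 rose (3.91) and RNF7, the RING protein of CUL5 (-3.64), the F-box protein SKP2 (-2.95) and the CUL4 receptors DCAF7 (-3.06) and DTL (-3.69) fell.

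Of 17 listed neddylation and COP9 genes 15 were in the table and 10 tested. DCUN1D4, which helps NEDD8 onto cullins, fell at the 4-cell (-1.55, limma, adjusted p = 0.0289) and again at the 8-cell stage (-3.56, limma, adjusted p = 0.000149), and SENP8, a NEDD8 protease, fell at the 4-cell stage (-3.38, limma, adjusted p = 0.0232). Both were lower at the 8- than at the 1-cell stage, and so were DCUN1D1 (-2.08) and CAND1, which exchanges F-box proteins on CUL1 (-1.69). Whether the falls of listed genes over this span hold under median-ratio scaling or the other alternative settings was not tested. Of 16 listed genes of the anaphase-promoting complex 13 were in the table and 10 tested, and CDC26, a small subunit, rose by 4.92 on the log2 scale from the 2- to the 4-cell stage (limma, adjusted p = 1.17e-05) and by 2.50 to the 8-cell stage (limma, adjusted p = 0.027). Both listed E4 genes were tested, and UBE4B, which lengthens chains, rose from the 1- to the 8-cell stage (4.12, limma, adjusted p = 0.000614).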

How the data were processed

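Single-cell RNA-seq of 42 pig zygotes and blastomeres was analysed from a table of 15351 genes. The deposited values are FPKM, which the authors made by aligning reads to Sscrofa11.1 with HISAT2, assembling transcripts with StringTie and counting reads with HTSeq. Versions, annotation release and strandedness are not given in the sources used here. FPKM steps gave whole reads (tolerance 0.002) for 14664 of 14668 nuclear genes above 0, from which the depth per cell was taken. Blastomeres were averaged per embryo, and log2(FPKM + 1) of 20 embryos in 8 groups was fitted with limma 3.58.1 (R 4.3.3, trend), with Benjamini-Hochberg adjustment over all 8116 genes that passed the filter. The fit was also run on simulated data, with 50 genes at each true log2 change of 1, 2, 3 and 4. From the 2- to the 4-cell stage it called 2, 18, 39 and 45 of them. From the 4- to the 8-cell stage it called 0, 4, 20 and 39, so changes of 2 or less were mostly missed there. Named are the members called in a comparison (at most 12 per direction), the 3 most abundant of each family, all cullins and a list chosen for known roles. UBE2G1, UBE2L5P, FBXL13, UBE2J1, UBE2O, FBXO25, FBXO40, FBXO44 and UBE2Z were named after their values or positions were seen. Other pseudocounts, filters, scalings, ways of joining blastomeres and subsets of samples were tried. The members and gene lists were chosen with earlier results of these data known. RefSeq Sscrofa11.1 gave the upstream sequences. Mature oocytes and embryos grown in vivo are not analysed here. Some members are counted but their own results are not reported here.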

Additional observations from a re-analysis of the deposited data

Results flagged for a closer look

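The change from the 4- to the 8-cell stage differed between IVF and PA embryos for 5 members in the limma fit of both methods, where the test is on the difference of the 2 changes (IVF minus PA, log2 scale, adjusted p over 8116 genes). The difference was -7.07 for CUL4B (adjusted p = 0.00618), -6.80 for UBE2H (adjusted p = 0.00971), -6.51 for UBE2C (adjusted p = 0.0224), -5.90 for UBE2J2 (adjusted p = 0.0224) and -5.77 for FBXL5 (adjusted p = 0.0419). Each value rests on 1 IVF and 1 PA 8-cell embryo. The FBXL5 difference was called in 3 of 11 alternatives, and not under median-ratio scaling or without the repeated blastomeres. UBE2J2, UBE2H and FBXL5 were above 1 FPKM in 1 of the 3 PA 8-cell blastomeres, and UBE2C and CUL4B in 2 of them.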

How the results depend on the processing

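Counts are of members called by limma. With each embryo left out in turn they ranged from 0 to 0 from the 1- to the 2-cell stage, from 1 (without IVF 2-cell embryo 1) to 6 (without IVF 4-cell embryo 1) against 3 from the 2- to the 4-cell stage, where 5 were called without PA 4-cell embryo 2, from 8 to 16 (without IVF 4-cell embryo 2) against 10 from the 4- to the 8-cell stage and from 19 to 22 against 20 from the 1- to the 8-cell stage. Within IVF they ranged from 0 to 5 (without IVF 4-cell embryo 1) against 1, with 3 without PA 4-cell embryo 3, and from 7 to 10 against 8, and within PA from 0 to 1 (without PA 4-cell embryo 1) against 0 and from 9 to 12 against 11. IVF against PA gave 0 to 1 (without IVF 1-cell embryo 1) at the 1-cell, 0 to 0 at the 2-cell and 0 to 1 at the 4-cell stage, and the difference of changes 0 to 0 for the step to 4 and 4 to 7 against 5 for the step to 8 cells. The 8-cell embryos could not be left out, with 1 per group.

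From the 2- to the 4-cell stage the count of 3 became 5 with median-ratio scaling, 14 with log2 values averaged over blastomeres, 12 with the embryo as a random effect, 0 with the compared groups alone and 9 without the repeated blastomeres, and within IVF the count of 1 became 0 with a pseudocount of 5, with no filter, with median-ratio scaling and with the compared groups alone, 2 with a filter at 5 FPKM, 6 with averaged log2 values and 8 with the random effect. Within PA it became 2, 1 and 4 with averaged log2 values, the random effect and no repeated blastomeres. From the 4- to the 8-cell stage the count of 10 became 3 with the compared groups alone, that of 8 in IVF 5, 5 and 0 with averaged log2 values, the random effect and the compared groups alone, and that of 11 in PA 4, 4 and 1 with these, 20 with median-ratio scaling and 7 without the repeated blastomeres. IVF against PA at the 4-cell stage became 1 with a pseudocount of 5, a filter at 5 FPKM or median-ratio scaling and 4 without the repeated blastomeres, and the difference of changes for the step to 8 cells became 12 with median-ratio scaling and 0 with averaged log2 values, the random effect or the compared groups alone. Under median-ratio scaling the change from the 1- to the 8-cell stage turned to 0.38 for CUL3 and 1.00 for CUL4B. The causes of these shifts were not tested, and the fit of the compared groups alone also had fewer samples. Under median-ratio scaling the counts over all genes moved as well, as given above.

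Embryo numbers did not pair the samples. Deviations of PA 2- and 4-cell embryos of the same number correlated at 0.355, 0.282 and 0.1, and at -0.013, 0.009 and -0.006 without the repeated blastomeres. With the number as a replicate block, counts were 0, 3, 8 and 20 in the averaged comparisons, 1 and 6 in IVF, 0 and 9 in PA, 0 at each stage between methods, and 0 and 5 for the differences of changes, so no count moved by over 1.5 times.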
